A study of Mus musculus with 10 samples.

Results

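The 10 RNA-seq libraries came from 5 cell lines made from clone 4T1-T, a population grown from 1 cell of the mouse mammary carcinoma line 4T1, and were divided here into 3 Slpi-low lines and 2 Slpi-retaining lines. Every line carried a viral short hairpin RNA, the controls included: shRenilla (a hairpin against Renilla luciferase, which mouse cells lack), shSerpine2-1 and shSerpine2-2 against Serpine2, and shSlpi-1 and shSlpi-2 against Slpi, with 2 libraries, A and B, per line. The lines were grouped by their measured Slpi level and not by their hairpin alone. The low lines are shSerpine2-1, shSlpi-1 and shSlpi-2 (6 of the 10 libraries), and the retaining lines are shRenilla and shSerpine2-2 (4 of the 10 libraries). The medium was rich in glucose and held 5% fetal bovine plus 5% fetal calf serum, and each library was amplified from 100 ng of DNase-treated total RNA. The labels do not call A and B separate cultures. The p-values below therefore rest on a spread between libraries that may be technical. All lines descend from 1 clone and each hairpin is present in 1 line, so a hairpin and the history of its line cannot be told apart.

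The values that chose the split were these. Slpi stood at 1189 and 1313 normalized reads in the shRenilla libraries and at 1111 and 1218 in the shSerpine2-2 libraries. A normalized read count here is a library's read count divided by its depth factor, recovered from the deposited log2 values. In the low lines Slpi stood at 326 and 414 in shSerpine2-1, at 145 and 147 in shSlpi-1, and at 60.9 and 75.8 in shSlpi-2. The highest low library (414, shSerpine2-1) and the lowest retaining library (1111, shSerpine2-2) are the values on either side of the gap. These Slpi levels are a description, and no test of Slpi is quoted, although Slpi is 1 of the genes in the counts over all genes below.

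Slpi encodes secretory leukocyte peptidase inhibitor, a small secreted protein with WAP domains that inhibits neutrophil elastase and cathepsin G and has antimicrobial activity at epithelial surfaces. Serpine2 encodes protease nexin-1, a secreted serpin that inhibits thrombin, plasminogen activators and other trypsin-like proteases. Both inhibitors act outside the cell, and both were knocked down in this series, whose title names breast cancer heterogeneity and vascular mimicry, the formation of blood-carrying channels by tumour cells. The gene shSerpine2-1 was aimed at is not Slpi, so a low Slpi level in that line and in both Slpi-hairpin lines allows genes to be sought that moved with Slpi under different hairpins.

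Slpi lies on the minus strand of chr2:164354070-164389095 (mm10/GRCm38, GENCODE), Cck on the minus strand of chr9:121489824-121495694, Mgp on the minus strand of chr6:136872435-136875823 and Mmp3 on the plus strand of chr9:7445822-7455975. All 4 are protein-coding genes. The 250 bases before the RefSeq transcription start (GRCm38.p6) are shown for Slpi, which defined the split, and for Cck and Mmp3, which fell in both hairpin comparisons described below. The windows are chr2:164356508-164356757 on the minus strand for Slpi (inside the longer GENCODE gene span), chr9:121495695-121495944 on the minus strand for Cck and chr9:7445572-7445821 on the plus strand for Mmp3. Capitals mark the E-box CACGTG in the Slpi and Cck windows and a match to the AP-1 motif TGANTCA in the Mmp3 window.
Slpi: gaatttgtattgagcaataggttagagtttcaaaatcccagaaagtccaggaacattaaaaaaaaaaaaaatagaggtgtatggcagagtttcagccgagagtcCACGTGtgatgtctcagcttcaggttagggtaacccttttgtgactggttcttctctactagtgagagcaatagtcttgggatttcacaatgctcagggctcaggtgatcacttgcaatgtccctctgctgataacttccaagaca
Cck: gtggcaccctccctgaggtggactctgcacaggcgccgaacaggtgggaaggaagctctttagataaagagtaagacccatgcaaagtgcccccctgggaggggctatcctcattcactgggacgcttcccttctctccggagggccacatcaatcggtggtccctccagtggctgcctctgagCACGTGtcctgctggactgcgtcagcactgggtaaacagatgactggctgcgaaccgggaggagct
Mmp3: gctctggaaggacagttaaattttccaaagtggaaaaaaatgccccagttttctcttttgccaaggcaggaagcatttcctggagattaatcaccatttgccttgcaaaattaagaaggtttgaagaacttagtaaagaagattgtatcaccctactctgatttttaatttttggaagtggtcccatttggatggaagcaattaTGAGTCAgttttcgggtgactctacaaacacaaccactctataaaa
The CACGTG begins 146 bases before the start in Slpi and 66 bases before it in Cck, and the TGANTCA match begins 46 bases before the start in Mmp3. Searched on both strands, CACGTG is held by 6.02% of the 32851 promoter windows of that length and TGANTCA by 6.75%. CACGTG also counts as a match to the looser E-box CANNTG, which 66.2% of windows hold. A total of 12 motifs were searched, and the genes and motifs shown were chosen after the matches were seen. The other motifs were TATAAA (12.4% of windows), TGACGTCA (1.55%), GGGCGG (32.7%), an NF-kB consensus (45.8%), TTGCGCAA (0.164%), TTNNNNAA (57.7%), CCGGAAGT (2.88%), GGAATG (12.6%) and GATTTCC (3.36%). A match describes the letters of the window only.

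Depth ran from 15877431 to 24026620 reads per library. The epithelial markers Krt8, Krt18, Epcam and Cdh1 stood at 1300 to 12918 normalized reads in all 10 libraries. Summed markers of other cell types were low in both sets of lines: leukocyte markers 142 to 152 in retaining and 138 to 180 in low libraries (mostly Cd68), neutrophil markers 1.05 to 6.15 and 2.32 to 17.0, and endothelial markers 30.6 to 51.8 and 38.5 to 137. Of the neutrophil markers, Elane, Mpo, Prtn3 and Ctsg were at 0 in every retaining library and at most 7.58 in a low one. The fibroblast markers summed to 773 to 904 in retaining and 462 to 653 in low libraries and were almost all Pdgfra, with Col3a1 and Lum at 0 to 2.84.

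More genes were detected in the low libraries. They held 17701 to 20253 gene entries with at least 1 read, against 15389 to 16040 in the retaining libraries, although the deepest library was a retaining one (shSerpine2-2 B). Reads in 1500 olfactory and other chemosensory receptor genes, a class chosen after the detection counts were seen, made up 13.7 to 25.2 RPM (reads per 1000000 reads of the library) in the retaining and 40.4 to 93.9 in the low libraries, with no overlap. Of the 9942 genes with a read but a mean under 10 normalized reads, 554 had all 6 low libraries above all 4 retaining ones and 11 had the reverse. Of the 12299 genes at or above that mean, 198 (1.61%) had all low libraries above and 375 (3.05%) had the reverse. The genes under that mean together took 0.0481% to 0.0665% of normalized reads in retaining and 0.0883% to 0.181% in low libraries. What part this low-level signal has in any result was not tested; values below cover the 12299 genes whose mean reached 10 normalized reads, and the signal is given beside the genes it could touch.

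**Figure D1:**
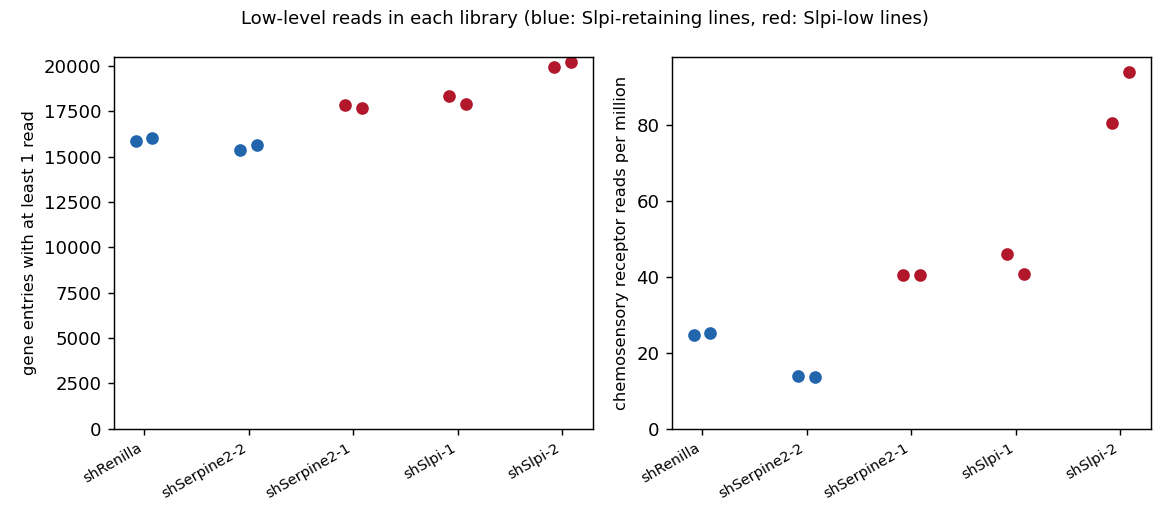
Gene entries with at least 1 read (left panel) and chemosensory receptor RPM (right panel), 1 point per library, with retaining lines in blue and low lines in red. The retaining libraries sit at 15389 to 16040 entries and 13.7 to 25.2 RPM, below every low library (17701 to 20253 and 40.4 to 93.9).

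The shSlpi-2 libraries stood apart in a further respect. The Rn45s entry, a ribosomal RNA precursor, took 6.88% and 6.91% of their reads and 0.881% to 1.96% in the other 8 libraries. The A and B libraries of shSlpi-2 also differed more from each other than those of any other line, their chi-square over its degrees of freedom being 10.9 against 1.55 to 2.76. Results were also computed without the shSlpi-2 libraries.

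Serpine2, the target of 2 of the hairpins, did not follow the split. It stood at 3256 and 3145 normalized reads in shRenilla and at 489 and 514 in shSerpine2-2, both of which retained Slpi. In the low lines it stood at 128 and 139 in shSerpine2-1, at 1342 and 1331 in shSlpi-1 and at 1553 and 1731 in shSlpi-2. The low libraries (128 to 1731) and the retaining libraries (489 to 3256) overlapped, although Serpine2 fell in both comparisons defined below. shSerpine2-2, where Serpine2 fell by 2.67 ± 0.07 (SE) on the log2 scale against shRenilla (limma, adjusted p = 2.99e-13), kept Slpi at a mean of 1164 against 1251. The lowest Serpine2 of the 5 lines was that of shSerpine2-1, and both Slpi-hairpin lines also held less Serpine2 than shRenilla.

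**Figure D2:**
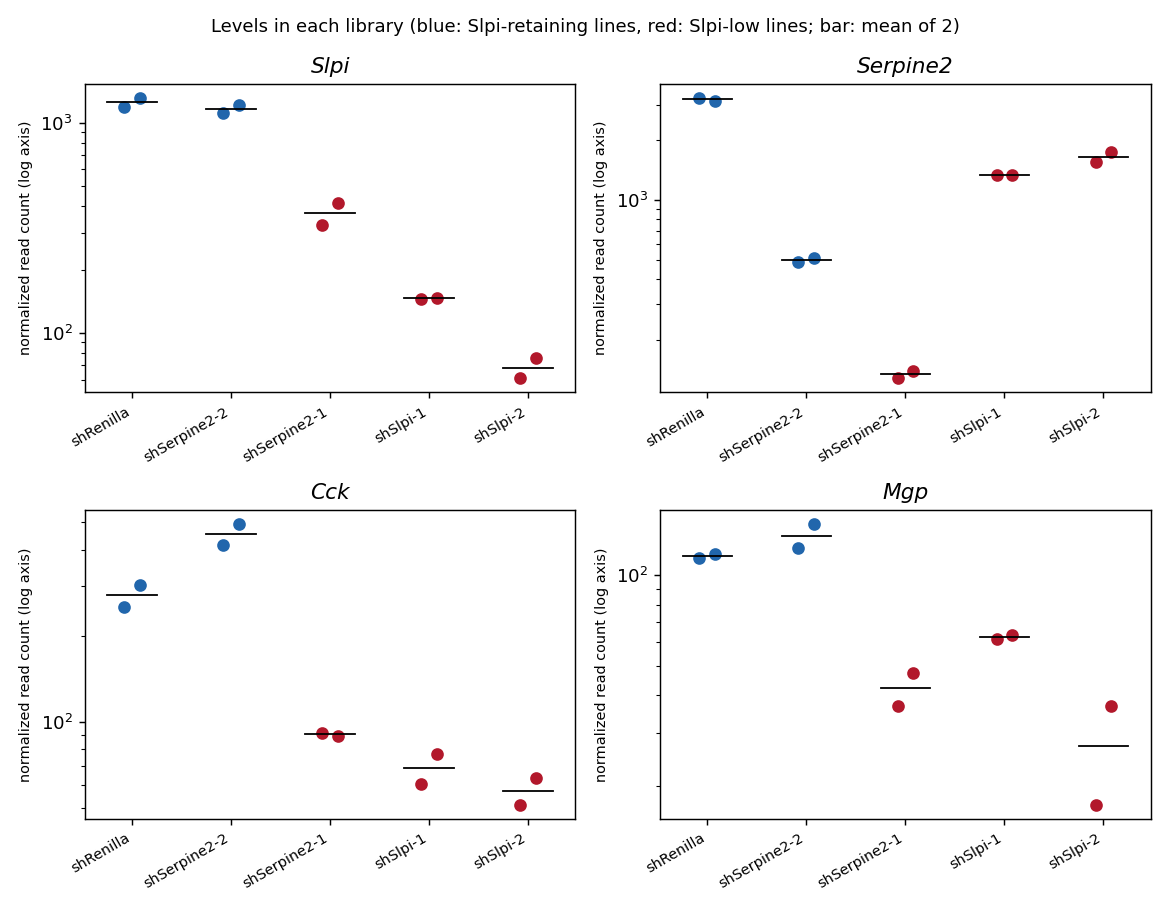
Normalized read counts on log axes of Slpi, Serpine2, Cck and Mgp in each library, with a bar at each line's mean of 2 libraries, retaining lines in blue and low lines in red. Slpi, Cck and Mgp are lower in all 6 low libraries than in all 4 retaining ones, and Serpine2 is not.

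Cck and Mgp were given with the split, from these same data, as markers of the low lines beside Slpi. Cck encodes the precursor of cholecystokinin, a peptide hormone of gut and brain, and Mgp encodes matrix Gla protein, a secreted inhibitor of calcification. Cck stood at 253 and 302 normalized reads in shRenilla and 418 and 493 in shSerpine2-2, and at 91.3 and 89.4 in shSerpine2-1, 60.5 and 77.0 in shSlpi-1 and 51.2 and 63.4 in shSlpi-2. The highest low library was 91.3 and the lowest retaining library 253, so the sets did not overlap, and with equal weight per line Cck was 4.96-fold lower in the low lines. Mgp stood at 114 and 118 in shRenilla, 123 and 148 in shSerpine2-2, 36.8 and 47.6 in shSerpine2-1, 61.5 and 63.5 in shSlpi-1, and 17.4 and 36.9 in shSlpi-2. The Mgp sets did not overlap either, with 63.5 as the highest low and 114 as the lowest retaining value, and the equal-weight difference was 3.03-fold. Neighbouring low lines were not separated in order by every library: in Cck, shSlpi-1 and shSlpi-2 overlapped, and in Mgp the higher shSlpi-2 library (36.9) was above the lower shSerpine2-1 library (36.8).

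Because the split itself was made on Slpi, genes were tested in 2 comparisons that the hairpin labels define and that share no library. The Slpi-hairpin comparison set the mean of shSlpi-1 and shSlpi-2 against shRenilla, and the Serpine2-hairpin comparison set shSerpine2-1 against shSerpine2-2, each as low minus retaining. Both came from 1 limma fit over all 12299 genes and 10 libraries, so they share the estimate of spread, and a gene was called at a Benjamini-Hochberg adjusted p below 0.05. In the Slpi-hairpin comparison 4281 genes were called (34.8%), 2027 higher (16.5%) and 2254 lower (18.3%) in the low lines. In the Serpine2-hairpin comparison 1805 were called (14.7%), 859 higher (6.98%) and 946 lower (7.69%) in shSerpine2-1. Most called differences were small, with a median size of 0.31 on the log2 scale in each, and 142 and 94 of the called genes reached a log2 size of 1.

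The genes called in both comparisons mostly went opposite ways. Of 1119 genes called in both, 899 (80.3%) had opposite signs and 220 the same sign. The 899 are 21% of the Slpi-hairpin calls and 49.8% of the Serpine2-hairpin calls, and the 220 are 5.14% and 12.2% of them. With a log2 size of at least 0.5 in both, 68 genes went the same way and 42 opposite ways. With a size of at least 1 in both, 22 went the same way and 2 opposite ways. Of these 22, 14 rose, none with a mean of 50 or more. The 8 that fell include Slpi, which chose the lines, Serpine2, a hairpin target, and Lcn2, a low-level gene. The counts rested on single libraries. The Slpi-hairpin count fell to 2732 without shRenilla A and 2401 without shRenilla B. The Serpine2-hairpin count fell to 498 and 635 without shSerpine2-1 A or B and to 696 and 404 without shSerpine2-2 A or B, and rose to 3180 and 3181 without shSlpi-2 A or B, which enter it only through the estimate of spread. The opposite-sign count was 194 to 595 without 1 library of shRenilla, shSerpine2-1 or shSerpine2-2 and 1699 and 1541 without shSlpi-2 A or B, and the same-sign count was 79 to 97 without 1 library of either Serpine2-hairpin line, 145 without shRenilla B and 352 and 384 without shSlpi-2 A or B. The share of opposite signs was 70.8% without both shSlpi-2 libraries and ranged from 68.6% to 84.8% over the alternative settings. Both calls were kept without any 1 library by 46 of the 220 same-sign genes (39 lower, 7 higher) and by 115 of the 899 opposite-sign genes.

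**Figure D3:**
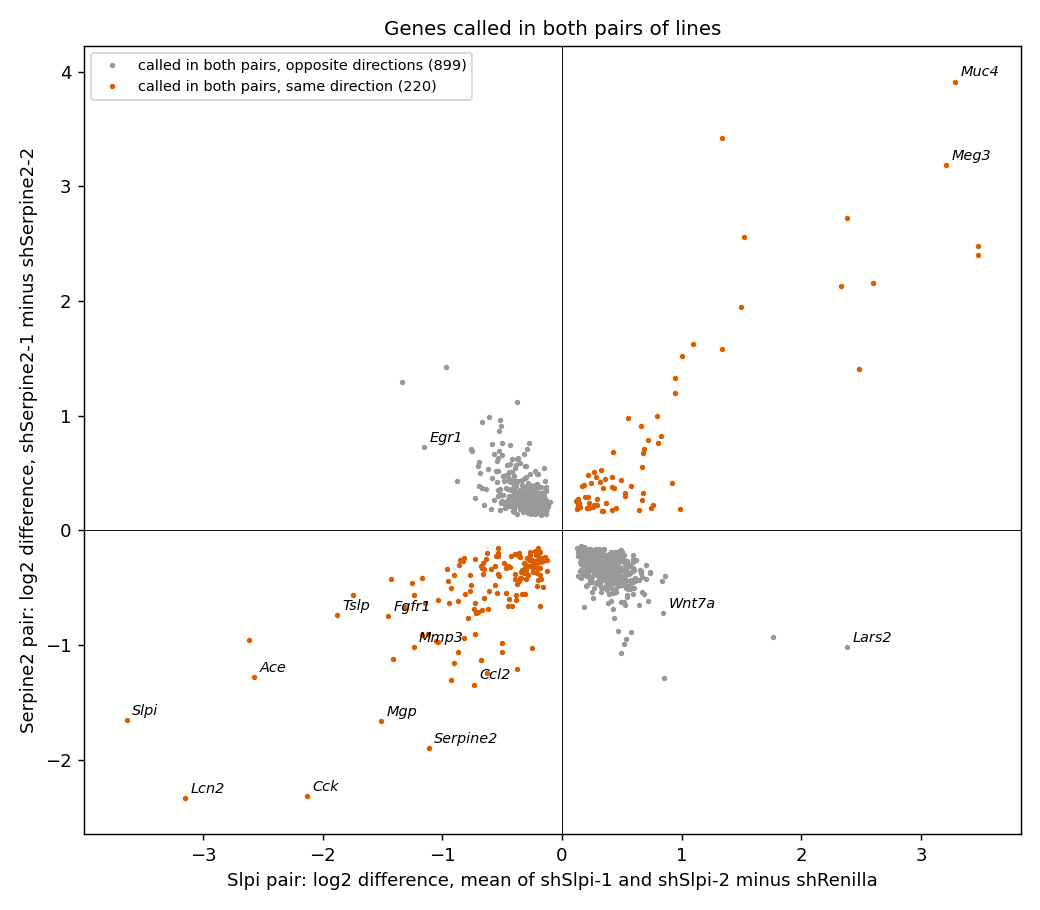
Log2 difference in the Slpi-hairpin comparison (Slpi pair, x axis) against the Serpine2-hairpin comparison (Serpine2 pair, y axis) for the 1119 genes called in both, with 220 same-sign genes in orange and 899 opposite-sign genes in grey. Of the opposite-sign genes 42 reach a log2 size of 0.5 in both and 2 a size of 1, and the orange points at lower left include Slpi, which chose the lines, Cck and Mgp.

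The low and retaining libraries did not overlap in 573 of the 12299 genes. In 198 of them (1.61% of genes) all 6 low libraries lay above all 4 retaining ones, and in 375 (3.05%) all 6 lay below. Without both shSlpi-2 libraries, which leaves fewer libraries to overlap, there were 1111 (436 above and 675 below). Of the 573, 175 were also called with the same sign in both comparisons, 55 higher and 120 lower in the low lines. The sets of lines do not form 2 distant clusters: the closest lines were shSerpine2-1 and shSlpi-1 (both low), with a median absolute log2 difference of 0.102 over 10537 genes with a mean of at least 50 and 7 genes beyond a log2 of 1. The next closest were shSerpine2-1 and shRenilla, at 0.108 and 21 genes, across the split. The retaining lines differed from each other by 0.159, with 29 genes beyond 1, and the farthest pair was shRenilla and shSlpi-2, at 0.210 and 121 genes. Between the 2 retaining lines 3384 genes (27.5%) were called, and 2134, 1610, 1843 and 1617 without shRenilla A, shRenilla B, shSerpine2-2 A and shSerpine2-2 B.

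After Slpi, the 11 genes with the largest equal-weight fall among the 114 that were lower in both comparisons without overlap (mean at least 50) were Cck, Ace, Mgp, Tslp, Man1c1, Fgfr1, Mmp3, Ccl2, Ngfr, Prl2c2 and Dio2, from -2.31 for Cck to -1.05 for Dio2 on the log2 scale. In the Slpi-hairpin comparison Cck fell by 2.13 ± 0.14 (SE; limma adjusted p = 1.58e-08) and Mgp fell by 1.51 ± 0.23 (adjusted p = 8.71e-05). In the Serpine2-hairpin comparison Cck fell by 2.32 ± 0.16 (adjusted p = 2.05e-07) and Mgp by 1.66 ± 0.26 (adjusted p = 0.000737). Both genes were known as markers of the split before these tests, so their p-values are no further support for it. The falls of Cck and Mgp were of like size in both comparisons, and the difference between comparisons was not called for either (-0.19 ± 0.21, adjusted p = 0.526, and -0.15 ± 0.35, adjusted p = 0.768).

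Mmp3, a matrix metalloprotease also called stromelysin-1, had the tightest values of the group. It stood at 787 and 844 normalized reads in shRenilla, 785 and 747 in shSerpine2-2, 381 and 373 in shSerpine2-1, 357 and 393 in shSlpi-1, and 320 and 313 in shSlpi-2. The 6 low libraries (313 to 393) and the 4 retaining libraries (747 to 844) formed 2 narrow sets. Mmp3 fell by 1.24 ± 0.07 in the Slpi-hairpin and by 1.02 ± 0.08 in the Serpine2-hairpin comparison (limma adjusted p = 2.69e-09 and 8.27e-07), and the difference between them was not called (0.22 ± 0.11, adjusted p = 0.122). The Mmp3 levels of the 2 retaining lines were not called different (-0.09 ± 0.08, adjusted p = 0.433).

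Fgfr1, a receptor tyrosine kinase for fibroblast growth factors, stood at 327 and 355 in shRenilla, 321 and 295 in shSerpine2-2, 184 and 182 in shSerpine2-1, 128 and 153 in shSlpi-1, and 104 and 115 in shSlpi-2. Its line means fell in the same order as those of Slpi. Fgfr1 fell by 1.45 ± 0.10 and 0.75 ± 0.12 (limma adjusted p = 5.80e-08 and 0.000853), and the fall was larger in the Slpi-hairpin comparison (difference 0.71 ± 0.16, adjusted p = 0.00265). Ngfr, the low-affinity neurotrophin receptor, stood at 161 to 191 in the retaining and 55.1 to 104 in the low libraries, and fell by 1.17 ± 0.14 and 0.91 ± 0.16 (adjusted p = 8.07e-06 and 0.00139). Prl2c2 (proliferin), a placental hormone of the prolactin family, stood at 259 to 392 in the retaining and 101 to 205 in the low libraries. It fell by 1.05 ± 0.14 and 0.96 ± 0.16 (adjusted p = 2.15e-05 and 0.000911), but Prl2c2 has near-identical family members, and how reads were shared among them is not given in the sources used here. Dio2, the deiodinase that converts thyroxine to its active form, fell by 1.31 ± 0.10 and 0.67 ± 0.12 (adjusted p = 1.02e-07 and 0.00142).

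Tslp and Ccl2 are secreted signals to immune cells. Tslp encodes thymic stromal lymphopoietin, a cytokine made by epithelial cells, and Ccl2 a chemokine for monocytes. Tslp stood at 1532 and 1582 in shRenilla, 1039 and 1011 in shSerpine2-2, 618 and 610 in shSerpine2-1, 647 and 583 in shSlpi-1, and 252 and 334 in shSlpi-2. Its low libraries (252 to 647) lay below the retaining ones (1011 to 1582), and it fell by 1.88 ± 0.09 in the Slpi-hairpin and 0.74 ± 0.10 in the Serpine2-hairpin comparison (limma adjusted p = 2.72e-10 and 0.000193). Ccl2 stood at 412 and 431 in shRenilla, 862 and 917 in shSerpine2-2, 365 and 333 in shSerpine2-1, 379 and 336 in shSlpi-1, and 146 and 221 in shSlpi-2. The retaining lines thus differed in Ccl2, which was higher in shSerpine2-2 than in shRenilla by 1.08 ± 0.14 (adjusted p = 4.84e-05), and the gap between the lowest retaining library (412) and the highest low library (379) was narrow. Ccl2 fell by 0.73 ± 0.12 and 1.35 ± 0.14 (adjusted p = 0.000182 and 1.56e-05).

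Ace and Man1c1 fell in both comparisons, but their Serpine2-hairpin calls rested on single libraries. Ace encodes angiotensin-converting enzyme and Man1c1 a mannosidase that trims N-glycans in the Golgi. Ace stood at 134 and 149 in shRenilla, 59.7 and 52.8 in shSerpine2-2, and 15.5 to 32.2 in the 6 low libraries. It fell by 2.57 ± 0.27 and 1.28 ± 0.31 (limma adjusted p = 2.32e-06 and 0.0114), and the latter call ended without shSerpine2-1 B (-0.93, adjusted p = 0.142), shSerpine2-2 A (-1.20, adjusted p = 0.0916) or shSerpine2-2 B (-1.37, adjusted p = 0.0729). Man1c1 stood at 127 to 217 in the retaining and 46.4 to 88.7 in the low libraries and fell by 1.75 ± 0.14 and 0.57 ± 0.16 (adjusted p = 1.94e-07 and 0.0278). The smaller Man1c1 fall was not called when any 1 of the 4 Serpine2-hairpin libraries was left out (-0.55 to -0.59, adjusted p = 0.110 to 0.157). The other 9 of the 11 genes kept both calls without any 1 of the 10 libraries.

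Lcn2, C3 and Aldh3a1 were also lower in all 6 low libraries. Lcn2 encodes lipocalin-2, an iron-siderophore binding protein of innate defence, C3 the central complement component, and Aldh3a1 an aldehyde dehydrogenase. Lcn2 was a low-level gene, at 56.9 and 54.0 in shRenilla, 33.4 and 40.6 in shSerpine2-2, 8.91 and 4.64 in shSerpine2-1, 13.1 and 9.36 in shSlpi-1, and 0.967 and 4.73 in shSlpi-2, where 0.967 is 1 read. The low libraries (0.967 to 13.1) lay below the retaining ones (33.4 to 56.9). Lcn2 passed the level filter only through the retaining lines, so these values are a description with no test. C3 stood at 249 to 327 in the retaining and 115 to 168 in the low libraries. It fell by 0.62 ± 0.11 and 1.24 ± 0.13 (adjusted p = 0.000392 and 1.61e-05). Aldh3a1 stood at 67.2 to 80.4 and 15.5 to 38.3 and fell by 1.41 ± 0.18 and 1.13 ± 0.21 (adjusted p = 2.22e-05 and 0.00252). Of the list of antimicrobial and acute phase proteins of epithelia, only Lcn2, C3 and Cfb of its 22 genes passed the level filter, so nothing is read from the list as such.

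**Figure D4:**
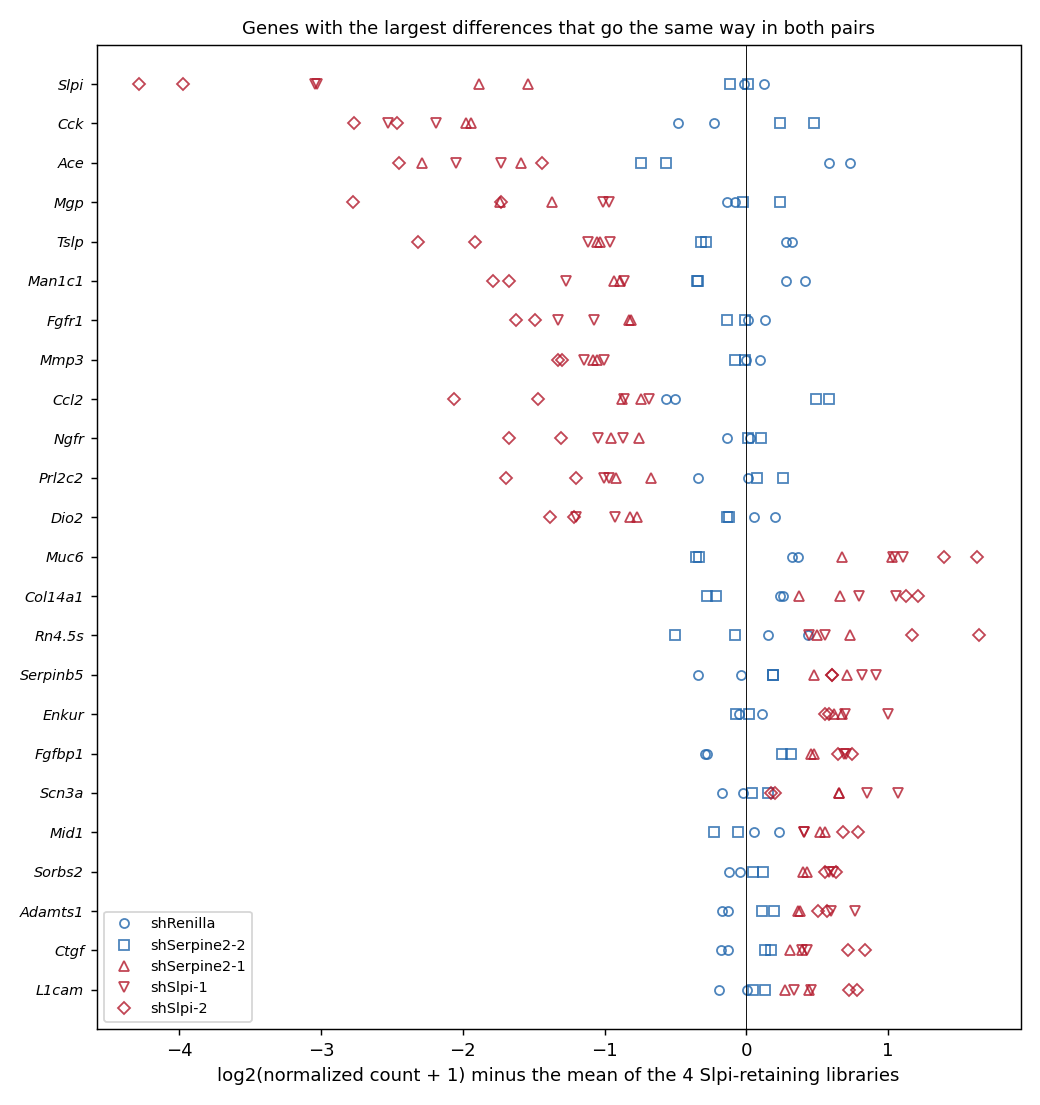
For the 12 genes with the largest falls and the 12 with the largest rises in both comparisons, each library's log2(normalized count + 1) minus the mean of the 4 retaining libraries, with 1 symbol per line, blue for retaining and red for low lines. The falls reach beyond -1 in most genes, the rises stay mostly below 1, and Slpi itself, which chose the lines, is at the top.

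Among genes with a mean of at least 50, those higher in both comparisons without overlap were fewer (39 against 114) and changed less. The 12 with the largest equal-weight rise ran from 1.14 (Muc6) to 0.50 (L1cam) on the log2 scale. At means of 10 to 50, 19 genes were called higher in both comparisons and 6 lower in both, whether or not their libraries overlapped. Muc6, a gel-forming mucin of stomach, stood at 112 and 115 in shRenilla, 69.4 and 70.5 in shSerpine2-2, 143 and 182 in shSerpine2-1, 193 and 183 in shSlpi-1, and 235 and 276 in shSlpi-2. The lowest low library (143) was above the highest retaining library (115), and Muc6 rose by 0.95 ± 0.12 and 1.19 ± 0.14 (limma adjusted p = 2.22e-05 and 6.15e-05). Of these 12 genes, Muc6 was the only one to keep both calls without any 1 of the 10 libraries.

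The other rising genes lost a call when 1 library was left out. Col14a1 (a fibril-associated collagen) rose by 0.80 ± 0.16 and 0.76 ± 0.19 (limma adjusted p = 0.00122 and 0.0133), and the second call ended without shSerpine2-1 A (0.62, adjusted p = 0.144), shSerpine2-2 A (0.79, adjusted p = 0.0659) or shSerpine2-2 B (0.73, adjusted p = 0.102). Mid1 (a microtubule-associated ubiquitin ligase) rose by 0.43 ± 0.10 and 0.68 ± 0.11 (adjusted p = 0.00307 and 0.00104), and its Slpi-hairpin call ended without shRenilla A (0.34, adjusted p = 0.0663) and without both shSlpi-2 libraries (0.26, adjusted p = 0.10). Rn4.5s, a repeated small RNA whose read counts are uncertain because its copies are near-identical, lost its calls without shRenilla A, shSerpine2-1 A or shSerpine2-2 A (adjusted p = 0.0744 to 0.0975), and without both shSlpi-2 libraries (0.20, adjusted p = 0.418).

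Serpinb5, Fgfbp1, Adamts1, Enkur and Scn3a lost the Serpine2-hairpin call when any 1 of its 4 libraries was left out. Serpinb5 encodes maspin, an epithelial serpin, Fgfbp1 a secreted carrier of fibroblast growth factors, and Adamts1 a secreted metalloprotease. Serpinb5 stood at 162 and 131 in shRenilla, 190 and 189 in shSerpine2-2, 273 and 232 in shSerpine2-1, 315 and 293 in shSlpi-1, and 253 and 253 in shSlpi-2. It rose by 0.92 ± 0.11 and 0.41 ± 0.12 (limma adjusted p = 6.09e-06 and 0.0330), and the adjusted p of the smaller rise ran from 0.0528 to 0.282 when 1 of the 4 was left out. Fgfbp1 stood at 1425 and 1436 in shRenilla, 2080 and 2173 in shSerpine2-2 and 2398 to 2930 in the low libraries, and Adamts1 at 1508 and 1462, 1777 and 1891, and 2127 to 2808. Both were already higher in shSerpine2-2 than in shRenilla (0.57 ± 0.05 and 0.30 ± 0.06, adjusted p = 3.06e-06 and 0.00171), so shRenilla was the line farthest from the rest. Their Serpine2-hairpin rises were 0.18 ± 0.05 and 0.22 ± 0.06 (adjusted p = 0.0286 and 0.0234, and 0.0745 to 0.208 without 1 of the 4 libraries). Enkur, a gene of sperm and cilia, and Scn3a, a voltage-gated sodium channel subunit, stood at 69.1 to 94.7 and 64.4 to 121 in the low libraries against 44.4 to 50.6 and 50.6 to 63.6 in the retaining ones. Their Serpine2-hairpin rises were 0.68 ± 0.18 and 0.56 ± 0.17 (adjusted p = 0.0211 and 0.0351, and 0.0838 to 0.183 without 1 of the 4). In the Slpi-hairpin comparison Enkur lost its call without shRenilla B (0.60, adjusted p = 0.0528), and Scn3a without both shSlpi-1 libraries (0.28, adjusted p = 0.217).

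Ctgf (connective tissue growth factor), L1cam (a neural adhesion molecule) and Sorbs2 (an adaptor of the actin skeleton) close this set. They rose in the Slpi-hairpin comparison by 0.75 ± 0.05, 0.67 ± 0.07 and 0.68 ± 0.06 (limma adjusted p = 6.16e-08, 4.73e-06 and 5.60e-07). Their Serpine2-hairpin rises were 0.20 ± 0.06, 0.26 ± 0.09 and 0.33 ± 0.07 (adjusted p = 0.0432, 0.0478 and 0.00569). Without shSerpine2-1 B these became 0.16, 0.18 and 0.31 (adjusted p = 0.257, 0.323 and 0.0605), and without shSerpine2-2 B 0.18, 0.31 and 0.29 (adjusted p = 0.248, 0.133 and 0.0892). The Ctgf call also ended without either shRenilla library, either shSlpi-1 library, shSerpine2-1 A or shSerpine2-2 A (adjusted p = 0.0565 to 0.131), and that of L1cam without either shSlpi-1 library, shSerpine2-1 A or shSerpine2-2 A (adjusted p = 0.0556 to 0.246). At the chemosensory genes' highest level per kilobase, the exons of those of the 12 rising genes with a length in the annotation would hold 0.52 to 9.29 normalized reads, and the part of this low-level signal in their rises was not tested.

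The largest rises were all in genes of low level. Of the 22 genes with the same sign and a log2 size of at least 1 in both comparisons, 14 rose, none of these with a mean of 50 or more (the highest mean was 40.0), and 8 fell, 6 of them with a mean of 50 or more. Muc4, a membrane mucin, stood at 3.16 and 11 in shRenilla, 0.878 and 2.30 in shSerpine2-2, 42.3 and 31.3 in shSerpine2-1, 52.4 and 32.3 in shSlpi-1, and 111 and 113 in shSlpi-2. Meg3, a long noncoding RNA, stood at 0 to 3.31 in the retaining and 11.1 to 52.1 in the low libraries. In both genes the retaining levels include values at or under 3 reads, so the fold is not precise. The median exon length of the 14 risers was 10.6 kb (13 with a length), against 1.87 kb for the 8 that fell and 4.43 kb for all tested genes. At the chemosensory genes' highest level per kilobase, Muc4 exons would hold 3.92 normalized reads and Meg3 exons 6.03. The part of the low-level signal in these long-gene rises was not tested.

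Other genes went opposite ways in the 2 comparisons. Lars2, a mitochondrial leucyl-tRNA synthetase, stood at 5977 and 7201 in shRenilla, 11719 and 11192 in shSerpine2-2, 5649 and 5667 in shSerpine2-1, 15038 and 14189 in shSlpi-1, and 73541 and 86522 in shSlpi-2. It rose by 2.38 ± 0.07 in the Slpi-hairpin and fell by 1.02 ± 0.08 in the Serpine2-hairpin comparison (limma adjusted p = 5.05e-13 and 6.64e-07). The 2 lines with the highest Lars2 were also those with the most Rn45s reads, at 6.88% and 6.91% in shSlpi-2 and 1.96% and 1.89% in shSlpi-1, and the part of ribosomal RNA in the Lars2 counts was not tested. Trmt61a, which methylates tRNA, stood at 859 and 821 in shRenilla, 1714 and 1652 in shSerpine2-2, 890 and 933 in shSerpine2-1, and 1228 to 1296 in both Slpi-hairpin lines. It rose by 0.58 ± 0.05 and fell by 0.88 ± 0.06 (adjusted p = 4.87e-07 and 2.05e-07).

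Egr1, an immediate early transcription factor, went the other way. It stood at 902 and 910 in shRenilla, 529 and 482 in shSerpine2-2, 861 and 807 in shSerpine2-1, 686 and 562 in shSlpi-1, and 252 and 281 in shSlpi-2. It fell by 1.15 ± 0.08 in the Slpi-hairpin and rose by 0.72 ± 0.09 in the Serpine2-hairpin comparison (limma adjusted p = 4.75e-08 and 0.000139). Wnt7a, a secreted Wnt ligand, rose by 0.84 ± 0.11 and fell by 0.72 ± 0.12 (adjusted p = 1.71e-05 and 0.00123), and without both shSlpi-2 libraries its rise was 0.30 (adjusted p = 0.0762). B3galt2, a galactosyltransferase, fell by 0.61 ± 0.14 and rose by 0.99 ± 0.16 (adjusted p = 0.00308 and 0.000926), and its fall was not called without shRenilla B (-0.58, adjusted p = 0.0508) or both shSlpi-2 libraries (-0.10, adjusted p = 0.569). In all 5 of these genes the 2 retaining lines differed, by 0.80, 1.00, -0.84, 0.91 and -1.32 in the order given (shSerpine2-2 minus shRenilla, adjusted p at most 8.21e-05). The difference between the comparisons was called for 4318 genes (35.1%), among them 64 of the 220 same-sign genes. It was called for all 899 opposite-sign genes too, but there 2 called effects of opposite sign add up. That call follows from how the 899 were selected and is no further result.

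Mmp9, a gelatinase, was among the genes called in the Serpine2-hairpin comparison alone. It stood at 335 and 329 in shRenilla, 414 and 408 in shSerpine2-2, 175 and 157 in shSerpine2-1, 197 and 232 in shSlpi-1, and 620 and 548 in shSlpi-2. The shSlpi-2 line thus had the highest Mmp9 and the other 2 low lines the lowest. Mmp9 fell by 1.31 ± 0.11 in the Serpine2-hairpin comparison (limma adjusted p = 1.04e-06) and was 0.09 ± 0.09 in the Slpi-hairpin one (adjusted p = 0.494), where it became -0.64 (adjusted p = 2.27e-05) without both shSlpi-2 libraries. Rhox5, Gbp2, Mmp10 and Havcr2 were among the other genes with the largest falls in that comparison alone (-0.92 to -1.40), and Nim1, Mettl21c, Kcnip4 and H2afy3 were among those with the largest rises (0.87 to 1.24). Some of these calls ended when 1 library was left out: Rhox5 without shSerpine2-1 B (-1.06, adjusted p = 0.0566), Gbp2 without shSerpine2-1 B (-0.80, adjusted p = 0.0506) or shSerpine2-2 A (-0.83, adjusted p = 0.0525), Havcr2 without shSerpine2-2 B (-0.91, adjusted p = 0.0552), and H2afy3 without shSerpine2-1 A, shSerpine2-1 B or shSerpine2-2 B (0.82 to 0.88, adjusted p = 0.0501 to 0.0745). The Kcnip4 call ended without either library of shRenilla, shSerpine2-1 or shSlpi-1 (0.97, adjusted p = 0.0536 to 0.180) and fell to 0.45 without shSerpine2-2 B (adjusted p = 0.448). Krt14, a basal keratin, and Dmp1, a bone matrix protein, had large differences between the comparisons without an opposite call. Krt14 stood at 115 and 120 in shRenilla, 216 to 266 in both Serpine2-hairpin lines, 347 and 284 in shSlpi-1 and 544 and 471 in shSlpi-2. It rose by 1.75 ± 0.10 in the Slpi-hairpin comparison (adjusted p = 3.28e-09), and its Serpine2-hairpin value was -0.23 ± 0.12 (adjusted p = 0.207).

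The genes most like Slpi over the 5 line means are given as a description, since 5 points with 1 shared split carry no test. Of 179 genes with a mean of at least 50 and line means spanning a log2 of 1 or more, Apcdd1 had the highest Pearson correlation with Slpi (r = 0.998), followed by Gpnmb (0.996), Fgfr1 (0.993), Btc (0.983) and Nov (0.981). Gpnmb, a transmembrane glycoprotein of melanocytes and bone cells, stood at 1788 and 1919 in shRenilla, 1797 and 1848 in shSerpine2-2, 1172 and 1183 in shSerpine2-1, 955 and 978 in shSlpi-1, and 767 and 686 in shSlpi-2. Its lines fell in the order of Slpi with no overlap except between the 2 retaining lines. Gpnmb fell by 1.14 ± 0.06 and 0.63 ± 0.07 in the Slpi-hairpin and Serpine2-hairpin comparisons. Apcdd1, a Wnt inhibitor at the cell surface, stood at 229 to 259 in the retaining libraries and at 158 and 193, 140 and 146, and 101 and 129 in shSerpine2-1, shSlpi-1 and shSlpi-2. It fell by 0.93 ± 0.12 and 0.50 ± 0.14, the second becoming -0.36, -0.48 and -0.52 without shSerpine2-1 A, shSerpine2-2 A and shSerpine2-2 B. Gpnmb and Apcdd1 were chosen for their likeness to Slpi, which fixes the direction of these falls. No test is therefore quoted for them.

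At the other end, Acpp (r = -0.974), Edn1 (-0.965), Itgb6 (-0.958), Col14a1 (-0.942) and Muc6 (-0.921) ran most against Slpi. Edn1 encodes the vasoconstrictor endothelin-1 and Itgb6 the beta subunit of an epithelial integrin that activates TGF-beta. Itgb6 stood at 133 and 138 in shRenilla, 174 and 169 in shSerpine2-2, 195 and 196 in shSerpine2-1, 238 and 251 in shSlpi-1, and 372 and 364 in shSlpi-2. Its lines did not overlap, although the step from shSerpine2-2 to shSerpine2-1 was small and not called (0.19 ± 0.10, limma adjusted p = 0.242). Its Slpi-hairpin rise was 1.14 ± 0.09. Edn1 stood at 28.4 to 43.0 in the retaining and 44.1 to 79.3 in the low libraries. It rose by 1.11 ± 0.19 in the Slpi-hairpin comparison, with 0.24 ± 0.21 in the other (limma adjusted p = 0.477). Acpp, prostatic acid phosphatase, rose by 0.69 ± 0.17 in the Slpi-hairpin comparison (0.56 without shRenilla A). These rises are a description, because the genes were chosen for line means that ran against Slpi. Of 10537 genes with a mean of at least 50, 254 had line means in the same order as Slpi and 106 in the reverse order.

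Gene lists were read by counts and medians beside those of all tested genes, whose median was -0.01 in both comparisons. Over all tested genes 16.5% rose and 18.3% fell in the Slpi-hairpin comparison, and 6.98% rose and 7.69% fell in the Serpine2-hairpin one. Bone matrix and mineralization genes had more falls than rises in both: of 12 tested, 7 fell and 1 rose in the Slpi-hairpin comparison (median -0.58) and 5 fell and 1 rose in the Serpine2-hairpin one (median -0.25). Spp1, or osteopontin, a secreted phosphoprotein that binds integrins, stood at 23343 and 25626 in shRenilla, 15464 and 15891 in shSerpine2-2, 11751 and 11583 in shSerpine2-1, 11468 and 11261 in shSlpi-1, and 7154 and 7443 in shSlpi-2. Its libraries did not overlap between the sets, and it fell by 1.43 ± 0.04 and 0.43 ± 0.05 (limma adjusted p = 7.56e-13 and 5.69e-05). Ank, a pyrophosphate exporter that limits mineralization, fell by 0.64 ± 0.04 and 0.25 ± 0.05 (adjusted p = 1.47e-08 and 0.00277, the second 0.0670 without shSerpine2-2 B). Dmp1 stood at 113 and 127, 58.8 and 53.6, 42.3 and 44.1, 38.3 and 38.5, and 22.2 and 26.5 in shRenilla, shSerpine2-2, shSerpine2-1, shSlpi-1 and shSlpi-2. It fell by 1.93 ± 0.17 in the Slpi-hairpin comparison (adjusted p = 5.60e-07), and was -0.37 ± 0.20 in the other (adjusted p = 0.232). Phex, a protease of phosphate balance, fell by 1.16 ± 0.07 in the Slpi-hairpin comparison (adjusted p = 1.39e-08) and was 0.17 ± 0.09 in the Serpine2-hairpin one (adjusted p = 0.206).

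Of 31 tested genes of fibroblast growth factor receptors and ERK feedback, 17 fell and 2 rose in the Slpi-hairpin comparison (median -0.35), and 7 fell and 3 rose in the Serpine2-hairpin one (median -0.09), where 18.3% and 16.5% of all genes fell and rose in the first and 7.69% and 6.98% in the second. The same-sign members were 5 lower, Fgfr1 and Tgfa among them, and 2 higher, Fgfbp1 among them. Tgfa, a ligand of the EGF receptor, stood at 3013 to 3741 in the retaining and 1558 to 2397 in the low libraries and fell by 0.96 ± 0.04 and 0.34 ± 0.05 (limma adjusted p = 1.47e-10 and 0.000348). Of the 31 tested NF-kB targets, cytokines and chemokines, 9 fell and 6 rose in the Slpi-hairpin comparison (median -0.06), and 15 fell and 1 rose in the Serpine2-hairpin one (median -0.32). Members lower in both included Tslp, Ccl2 and Tnfaip2, a TNF-induced gene that stood at 2300 to 2373 in the retaining and 1474 to 1817 in the low libraries and fell by 0.52 ± 0.05 and 0.40 ± 0.06 (adjusted p = 1.10e-06 and 0.000419). Cxcl5, a neutrophil chemokine, fell by 1.03 ± 0.10 in the Serpine2-hairpin comparison (adjusted p = 1.51e-05), where shSerpine2-2 (604 and 545) was the high line and shRenilla (297 and 270) stood level with shSerpine2-1 (304 and 260). Its Slpi-hairpin value of -0.25 ± 0.09 (adjusted p = 0.0418) was not called without either shRenilla, either shSerpine2-2 or either shSlpi-1 library (adjusted p = 0.0575 to 0.300), and was 0.03 without both shSlpi-2 libraries.

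Proteases and protease inhibitors related to the hairpin targets did not move as 1 group. Of 16 tested WAP domain and trypsin-type protease inhibitors, 6 rose and 4 fell in the Slpi-hairpin comparison (median 0.11), and 2 rose and 5 fell in the Serpine2-hairpin one (median -0.13). Of all genes, 16.5% rose and 18.3% fell in the first, and 6.98% rose and 7.69% fell in the second. Slpi itself was not on that list, but Serpine2, the other hairpin target, was and is counted among the falls. The list's members with the same sign in both were Serpinb5 (higher) and Serpine2 (lower). Of the list of neutrophil serine proteases and progranulin, 5 of 12 genes passed the filter. Grn, which encodes progranulin, a growth factor that Slpi protects from elastase, stood at 3886 to 4274 in the retaining and 3352 to 4418 in the low libraries, which overlap. It was -0.04 ± 0.05 in the Slpi-hairpin comparison (limma adjusted p = 0.524) and fell by 0.32 ± 0.05 in the Serpine2-hairpin one (adjusted p = 0.00127). Of 9 tested secreted peptides and processing enzymes, 4 rose and 3 fell in the Slpi-hairpin and 4 fell in the Serpine2-hairpin comparison, with Cck and Ace lower in both.

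Epithelial, lipid synthesis, amino acid response and ribosomal protein lists held more rises than falls in the Slpi-hairpin comparison and more falls than rises in the other. Of 44 tested epithelial genes 28 rose and 1 fell there (median 0.40), and 2 rose and 7 fell in the Serpine2-hairpin comparison (median -0.06; 6 rose and 7 fell without both shSlpi-2 libraries). Over all genes 16.5% rose and 18.3% fell in the first and 6.98% rose and 7.69% fell in the second. Krt7, a simple epithelial keratin, stood at 1991 and 1831 in shRenilla, 3092 and 3137 in shSerpine2-2, 2978 and 3072 in shSerpine2-1, 3138 and 3318 in shSlpi-1, and 4020 and 3783 in shSlpi-2, so that shRenilla was the low line and the split was not followed. Krt7 rose by 0.89 ± 0.05 in the Slpi-hairpin comparison (limma adjusted p = 1.64e-09), was higher in shSerpine2-2 than in shRenilla by 0.71 ± 0.06 (adjusted p = 6.11e-07), and was -0.04 ± 0.06 in the Serpine2-hairpin comparison (adjusted p = 0.657). Epcam, an epithelial adhesion molecule, stood at 1300 to 1751 in the retaining and 1470 to 2159 in the low libraries, which overlap. Cdh1, or E-cadherin, stood at 9155 to 11157 and 11907 to 12918, rose by 0.42 ± 0.04 in the Slpi-hairpin comparison (adjusted p = 6.22e-07) and was 0.10 ± 0.04 in the other (adjusted p = 0.125).

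Of 39 tested lipid synthesis genes (cholesterol and fatty acids) 29 rose and none fell in the Slpi-hairpin comparison (median 0.26), and none rose and 9 fell in the Serpine2-hairpin one (median -0.07). The shares of all genes were 16.5% higher and 18.3% lower in the first, and 6.98% higher and 7.69% lower in the second. Scd2, a fatty acid desaturase, stood at 32090 and 32670 in shRenilla, 41146 and 41197 in shSerpine2-2, 36986 and 37385 in shSerpine2-1, 42282 and 42596 in shSlpi-1, and 55663 and 51142 in shSlpi-2, with the sets overlapping. Of 38 tested genes of the Atf4 amino acid response 19 rose and 1 fell (median 0.17), then 1 rose and 13 fell (median -0.17), and of 78 tested cytosolic ribosomal proteins 49 rose and 1 fell (median 0.32), then none rose and 13 fell (median -0.21). In these 3 lists the genes called in both comparisons had opposite signs in 9, 10 and 13 cases and the same sign in at most 1. Slc7a5, an amino acid transporter, stood at 3262 and 3167 in shRenilla, 4695 and 4757 in shSerpine2-2 and 3813 to 5150 in the low libraries, so shRenilla again stood apart from the other 4 lines. It rose by 0.47 ± 0.05 in the Slpi-hairpin comparison (limma adjusted p = 1.98e-06) and was higher in shSerpine2-2 than in shRenilla by 0.56 ± 0.06 (adjusted p = 5.99e-06).

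Angiogenic factors went both ways. Of 31 tested, 8 rose and 8 fell in the Slpi-hairpin comparison (median 0.05), and 3 rose and 8 fell in the Serpine2-hairpin one (median -0.13). Beside them, 16.5% of all genes rose and 18.3% fell in the first, and 6.98% rose and 7.69% fell in the second. Angpt1, the activating ligand of the Tie2 receptor, stood at 193 to 306 in the retaining and 78.3 to 178 in the low libraries and fell by 1.39 ± 0.12 in the Slpi-hairpin comparison (limma adjusted p = 2.63e-07), with -0.36 ± 0.13 in the other (adjusted p = 0.0777). Cyr61, a matricellular protein related to Ctgf, stood at 4153 to 5149 in the retaining and 5685 to 7219 in the low libraries and rose by 0.65 ± 0.04 and 0.18 ± 0.05 (adjusted p = 1.28e-08 and 0.0188). Its smaller rise was not called when any 1 of the 4 Serpine2-hairpin libraries was left out (0.16 to 0.20, adjusted p = 0.0916 to 0.156). Pdgfra, counted above as the main fibroblast marker, fell by 0.68 ± 0.08 in the Slpi-hairpin comparison (adjusted p = 1.19e-05) and was -0.29 ± 0.10 in the other (adjusted p = 0.0546). The next counts stand beside 18.3% of all genes that fell and 16.5% that rose in the Slpi-hairpin comparison, then 7.69% and 6.98% in the Serpine2-hairpin one. Of 22 tested mesenchymal genes 6 fell and 2 rose, then 4 fell and 3 rose. Of 45 interferon-stimulated genes 10 fell and 1 rose, then 2 fell and 3 rose, and of 53 genes of DNA replication and mitosis 17 rose and 8 fell, then 9 rose and 4 fell (18 rose and 5 fell without both shSlpi-2 libraries). Of 53 replication-dependent histone genes 6 fell in the Slpi-hairpin comparison (median -0.20) and none was called in the other.

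The shSlpi-2 libraries bore on some of these counts, and the counts over all 12299 genes moved too. Without both shSlpi-2 libraries, all Serpine2-hairpin rises went from 859 to 1511 and falls from 946 to 1674. All Slpi-hairpin rises went from 2027 to 1507 and falls from 2254 to 1816, and to 2461 and 2606 without both shSlpi-1 libraries. Whether the lists moved more than all genes was not tested. Without both shSlpi-2 libraries, histone genes that fell in the Slpi-hairpin comparison, then shSlpi-1 against shRenilla, numbered 44 of 53 (median -0.44). Without both shSlpi-1 libraries none fell, 3 rose and the median was 0.04. Both fits used the same 2 shRenilla libraries, and shSlpi-1 was not tested against shSlpi-2 directly. In the Serpine2-hairpin comparison, fitted with a smaller spread, ribosomal protein falls went from 13 to 51 of 78 and Atf4 falls from 13 to 20 of 38 without both shSlpi-2 libraries, with the medians as they were. The bone matrix counts without them were 7 lower and 1 higher in the Slpi-hairpin comparison (median -0.43) and 5 lower and 2 higher in the other. Inhibitor, secreted peptide and angiogenic lists changed the sign of their Slpi-hairpin median without both shSlpi-2 libraries, to -0.05 in each, and NF-kB rises there went from 6 to 3. In the Slpi-hairpin comparison without them, angiogenic falls went from 8 to 4, replication and mitosis falls from 8 to 5, epithelial falls from 1 to 4, mesenchymal rises from 2 to 4, and rises of secreted peptides from 4 to 2. In the Serpine2-hairpin comparison, inhibitor falls went from 5 to 8 and interferon falls from 2 to 4. Without both shSlpi-1 libraries, angiogenic rises in the Slpi-hairpin comparison went from 8 to 13 and replication and mitosis falls from 8 to 16.

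**Figure D5:**
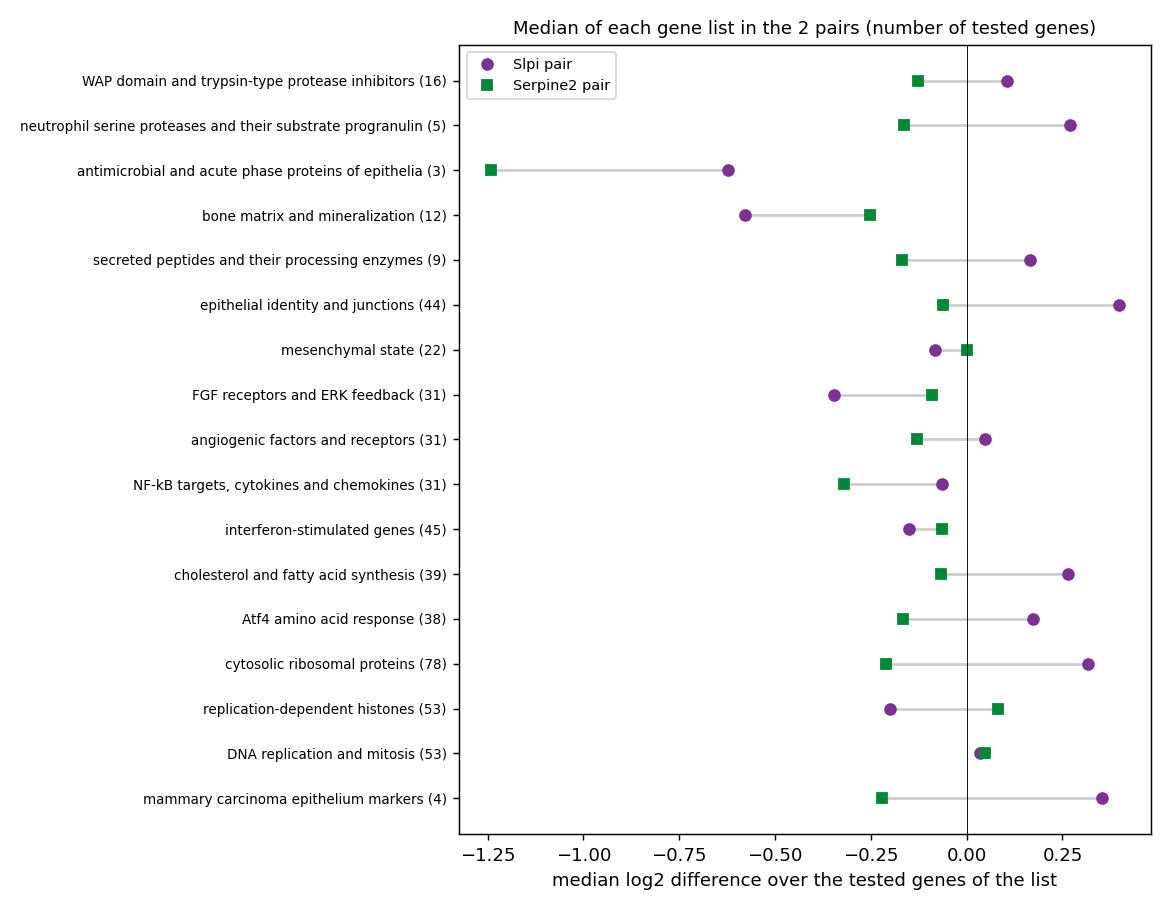
Median log2 difference of the tested genes of each list in the Slpi-hairpin comparison (Slpi pair, purple circles) and the Serpine2-hairpin comparison (Serpine2 pair, green squares), with the number of tested genes in brackets. Bone matrix genes are below 0 in both, while epithelial, lipid, Atf4 and ribosomal protein lists are above 0 in the first and below 0 in the second.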

How the data were processed

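The 10 libraries were 76 bp reads from NuGEN Ovation amplified complementary DNA, per the labels' protocols. The submitters' processing notes name Bowtie2, HTSeq, DESeq and mm10. Neither their versions nor the strand setting is given in the sources used here, so a gene and an overlapping antisense gene cannot be told apart. The deposited table held log2 values for 23479 gene entries, on a variance-stabilised scale with a floor of 6.73 that the authors' normalization gave to a count of 0. The floor was inferred from the values. Inverting that scale gave whole reads for 100% of values (tolerance 0.01 reads) and hence depths. Normalized reads are those counts over each library's depth factor. A fit of the values as deposited is one of the alternatives.

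Tests used limma 3.58.1 in R 4.3.3 on log2(normalized count + 1) with a mean-variance trend, over 12299 genes with a mean of at least 10, 5 line means and 10 libraries, with Benjamini-Hochberg adjustment and a threshold of 0.05. The scripts were tested on simulated data. Named genes are Slpi, Serpine2, Cck and Mgp, the 12 largest rises and falls in both comparisons without overlap, the 5 largest of each other pattern and the 5 most and least like Slpi (mean at least 50), with list members added. Aldh3a1, Muc4 and Meg3, with means below 50, were added outside this rule. They were taken from the genes with a log2 size of at least 1 in both comparisons. The split, the lists and the named members were chosen with earlier results of these data known. Precision is limited by 2 libraries per line. Alternatives were another scaling, pseudocount, filter, spread estimate or tool, a block on the letters, and libraries or lines left out. GENCODE M21 matched 21845 of the 23479 symbols once, and 27 date-like names were not named.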

Additional observations from a re-analysis of the deposited data

Results flagged for a closer look

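The difference between the Serpine2-hairpin and the Slpi-hairpin comparison (first minus second, log2 scale) passed the limma test at an adjusted p below 0.05 in the 41 genes given here, which are not all of the genes named above that passed it. Slpi, which chose the lines, is left out. Gpnmb, Edn1 and Itgb6 were taken for line means that ran with or against Slpi, so their passing is no further result. The effect was more negative in the Slpi-hairpin comparison, so the difference is positive, in Ace (1.29), Tslp (1.14), Man1c1 (1.18), Fgfr1 (0.71), Dio2 (0.64), Egr1 (1.88), B3galt2 (1.59), Dmp1 (1.56), Gpnmb (0.52), Spp1 (1.00), Ank (0.39), Phex (1.32), Tgfa (0.62), Angpt1 (1.03) and Pdgfra (0.40). Among genes lower in the Serpine2-hairpin comparison, the difference was negative in Serpine2 (-0.79), C3 (-0.62), Ccl2 (-0.61), Cxcl5 (-0.78), Mmp9 (-1.39), Grn (-0.28), Lars2 (-3.40), Wnt7a (-1.57) and Trmt61a (-1.46).

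It was also negative in genes that rose in the Slpi-hairpin comparison and rose less, were not called or fell in the other: Serpinb5 (-0.51), Fgfbp1 (-0.80), Sorbs2 (-0.35), Adamts1 (-0.54), Ctgf (-0.55), L1cam (-0.40), Cyr61 (-0.47), Krt14 (-1.98), Krt7 (-0.94), Edn1 (-0.87), Itgb6 (-0.95), Epcam (-0.81), Cdh1 (-0.31), Scd2 (-0.70), Cyp51 (-0.67), Slc7a5 (-0.51) and Mthfd2 (-0.62). Of these, Epcam, Cyp51 and Mthfd2 were called lower in the Serpine2-hairpin comparison (-0.21, -0.17 and -0.23). Those calls rested on both libraries of each Serpine2-hairpin line. Without 1 library, the difference was not called for Serpinb5, L1cam, Ace, Ccl2, C3, Edn1 and Pdgfra in at least 1 case, and for Grn it was not called without both shSlpi-2 libraries (-0.14, adjusted p = 0.0606).

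Outside the tested genes, chemosensory receptor genes reached 93.9 RPM in a low library, above the 13.7 to 25.2 of the retaining libraries.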

How the results depend on the processing

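Counts below are genes called in the Slpi-hairpin comparison (4281), the Serpine2-hairpin comparison (1805), both with the same sign (220) or opposite signs (899), their difference (4318) and the retaining lines (3384). With no mean-variance trend the Serpine2-hairpin count was 712, the same-sign count 122 and the opposite-sign count 302. With no filter on low counts the Serpine2-hairpin count was 1133 and the opposite-sign count 504, and the higher calls of the Slpi-hairpin comparison went from 47.4% to 60.8%. The balance of directions moved with the scaling. With quantile normalization the Serpine2-hairpin calls were 897 higher and 775 lower, and the genes without overlap 235 above and 323 below. With total reads per library the Slpi-hairpin calls were 1676 higher and 2724 lower, and the genes without overlap 155 above and 441 below. Fitting only the libraries compared gave 3599 Serpine2-hairpin and 1394 opposite-sign genes. Without both shSlpi-2 libraries the Serpine2-hairpin count was 3185 and the same-sign count 395. Leaving out 1 library gave 2401 to 5135 Slpi-hairpin, 404 to 3181 Serpine2-hairpin, 79 to 384 same-sign, 194 to 1699 opposite-sign, 3028 to 5286 difference and 1610 to 4652 retaining-line genes. The 573 genes without overlap became 647 to 784 without 1 library, and 1887, 3247, 1291, 899 and 1111 without both libraries of shRenilla, shSerpine2-2, shSerpine2-1, shSlpi-1 and shSlpi-2, where fewer libraries make non-overlap easier. The cause of the other changes was not tested. Without both shSlpi-2 libraries the Slpi-hairpin values reversed for Mmp9 (-0.64), Cpe (-0.054) and Cxcl5 (0.033). Of 7005 alternative values of all results, 6539 kept direction and side of the threshold.

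The letters A and B did not pair the libraries: the correlation of A minus B between lines ran from -0.20 to 0.17 over 10 pairs of lines, with 2 over 0.1. With a replicate block on the letters the counts were 4256, 1816, 217, 911, 4291 and 3353 in the order above.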
